A study of Rattus norvegicus with 31 samples.

Results

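Aged rats with intact spatial memory (AU-act, 16 rats) were compared with aged rats whose spatial memory was impaired (AI-act, 15 rats) in the expression profile of hippocampal CA3, using all 31 arrays of the series with 1 array per rat. The rats were chosen by the phenotype in the sample labels, with both training tasks pooled and the task kept as a term of the model. All were male Long-Evans rats of 24 to 26 months, classed as aged unimpaired (AU) or aged impaired (AI) by 8 days of watermaze testing, and all were later given a single session of 8 swims to a visible platform. AU-S (8 rats) and AI-S (8 rats) swam with room cues and a fixed platform (spatial, S), while AU-NS (8 rats) and AI-NS (7 rats) swam without the cues to a platform that moved (non-spatial, NS). All rats were given a probe trial without the platform 1 hour after the last training trial. Tissue was taken right after that trial, about 2 hours after the task began. No untrained or young rats are analysed here, so a difference between phenotypes that training brought about and one already present before it cannot be told apart. The tissue was dissected CA3 with all its cell types, so fewer cells of a type and less RNA per cell cannot be told apart either.

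CA3 pyramidal neurons receive the mossy fibres of dentate granule cells and excite one another through recurrent collaterals, a circuit long tied to rapid encoding and pattern completion and held in check by GABA-releasing interneurons. Much of the messenger RNA of such tissue serves the synapse: proteins that dock, prime, fuse and retrieve vesicles on the presynaptic side, scaffolds and receptors on the postsynaptic side, and motors, coats and pumps that supply both. On this Affymetrix array a gene is read by 1 or more probesets, groups of short probes lying mostly near the 3′ end of the transcript. The values used are log2 signals after gcRMA normalization, so that a difference of 1 is a doubling of signal. Levels of different probesets are used to rank and describe the probesets, not as relative amounts of RNA.

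All 6 CA3 pyramidal markers were measured (Grik4, Bok, Cpne4, Nectin3, Crym and Homer3), with mean log2 signals from 9.23 for Homer3 to 12.64 for Cpne4. Their average was 10.93 ± 0.06 (SD, n = 16) in AU-act and 10.87 ± 0.11 (SD, n = 15) in AI-act rats (two-sided permutation test, p = 0.0486). In a longer list, 9 of 11 measured CA3 genes had a positive difference, with a median of 0.05. With the control covariate defined below 5 were positive, with a median of -0.006. In limma 0 of the 11 passed at their brightest probeset, and 2 had an unadjusted p under 0.05. The dentate granule markers Prox1 and Calb1 and 4 of 5 CA1 markers were measured too, and AU-act minus AI-act was -0.14 (permutation test, p = 0.234) and 0.05 (p = 0.691). For the dentate markers this average joined opposite signs, -0.45 within S and 0.20 within NS training, and single rats ran from 9.19 to 9.95 in AU-S, from 9.27 to 10.44 in AI-S, from 9.44 to 9.79 in AU-NS and from 9.09 to 10.15 in AI-NS. In the longer marker lists 1 of 9 dentate genes had a positive difference, with a median of -0.05 (-0.13 within S and 0.06 within NS), and 3 of 10 CA1 genes, with a median of -0.13, or -0.23 and 0 positive with the control covariate defined below. In limma 0 genes of the dentate and CA1 lists passed, and 0 had an unadjusted p under 0.05. With the dentate and CA1 marker levels as covariates, limma called 659 probesets higher and 66 lower, against 818 and 90 without them. Control probesets read the 5′ end, the middle and the 3′ end of a few transcripts on each array, so that the gap between 3′ and 5′ signals widens where RNA is shorter. For Gapdh and beta-actin together it was 1.45 ± 0.10 (SD, n = 16) in AU-act and 1.59 ± 0.13 (SD, n = 15) in AI-act rats (permutation test, p = 0.00045), and for hexokinase 1.41 ± 0.15 and 1.79 ± 0.27 (p = 6e-05). This measure moved with the phenotype throughout, and its part in the differences given here was not tested. The average of the 18 hybridization controls, RNAs added to every sample in fixed amounts, differed by 0.04 (permutation test, p = 0.457).

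Far more probesets were higher than lower in AU-act rats, as counted with limma and Benjamini-Hochberg adjustment. Of 16204 probesets, limma called 818 higher (5.05%) and 90 lower (0.555%) at an adjusted p under 0.05, and the differences were small, with a median of 0.28 on the log2 scale among those called higher and -0.27 among those called lower. No called probeset differed by more than 1 on the log2 scale, 43 differed by more than 1.5-fold and 414 by less than 1.2-fold, and in 0 probesets were all rats of one phenotype above all rats of the other. With the 3′ minus 5′ difference of Gapdh and beta-actin as a covariate, 1 probeset was called higher and 0 lower, and with that of hexokinase 0 were called, although all 818 and all 90 kept their sign in the first fit, with medians of 0.17 and -0.24. In the hexokinase fit 802 of the 818 stayed positive, with a median of 0.12. In limma 0 probesets (0%) passed when the phenotype difference of S rats was set against that of NS rats (adjusted p under 0.1), with 396 at an unadjusted p under 0.05.

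The probeset that passed in every fit but that with the hexokinase covariate belongs to Ap3d1, the delta subunit of the AP-3 adaptor that buds vesicles from endosomes. Its log2 signal ran from 9.13 to 9.45 with a median of 9.25 in AU-act rats and from 8.82 to 9.15 with a median of 8.95 in AI-act rats. The ranges barely overlapped, and 14 of 16 AU-act rats lay above every AI-act rat. The difference was 0.29 (SE 0.04, adjusted p = 0.000121), with 0.30 (SE 0.05) within S and 0.29 (SE 0.05) within NS training. A brighter probeset of the gene, averaging 13.31 in AU-act and 13.29 in AI-act rats, differed by 0.02 (SE 0.03) and did not pass.

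At the brightest probeset of a gene, which stands for the gene from here on unless another is named, 196 of 9037 genes were higher (2.17%) and 30 lower (0.332%) in AU-act rats. In limma 1321 of the 9037 genes had an unadjusted p under 0.05, and 51.8% had a positive difference. Counts of both kinds in the lists below are to be read beside these. Lists also differed from all genes in signal level, whose median was 9.37 over all genes. It was 10.73 for vesicle release, 11.45 for GABA and glycine, 11.87 for ion pumps and 12.95 for ribosomal protein genes. For glycolysis and the citrate cycle it was 12.43, with a median SD in AU-act rats of 0.10 against 0.15 over all genes. The part of level and SD in the shares was not tested. Ppp2r2c, a brain regulatory subunit of protein phosphatase PP2A, ranged from 9.26 to 9.83 (median 9.56) in AU-act and from 8.40 to 9.39 (median 8.95) in AI-act rats. Entr1, an endosomal protein that works with retromer in receptor recycling, ranged from 8.82 to 9.32 (median 9.08) and from 8.29 to 8.98 (median 8.75). Unc13a, which primes synaptic vesicles for fusion, ranged from 7.70 to 8.68 (median 8.29) and from 7.23 to 8.09 (median 7.71). In each of these 3 genes all 16 AU-act rats lay above the AI-act mean, and 11, 13 and 11 of them lay above every AI-act rat. The differences were 0.55 for Ppp2r2c (SE 0.09, adjusted p = 0.00147), 0.38 for Entr1 (SE 0.06, adjusted p = 0.00158) and 0.54 for Unc13a (SE 0.09, adjusted p = 0.00158). With the Gapdh and beta-actin covariate they were 0.34, 0.30 and 0.36, and none passed. Among the genes that were lower with a promoter in the reference used here, Ccdc59, which encodes a coiled-coil protein, had the smallest p, with values from 7.14 to 7.77 (median 7.55) in AU-act and from 7.45 to 8.26 (median 7.93) in AI-act rats and a difference of -0.37 (SE 0.07, adjusted p = 0.00335).

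**Figure D1:**
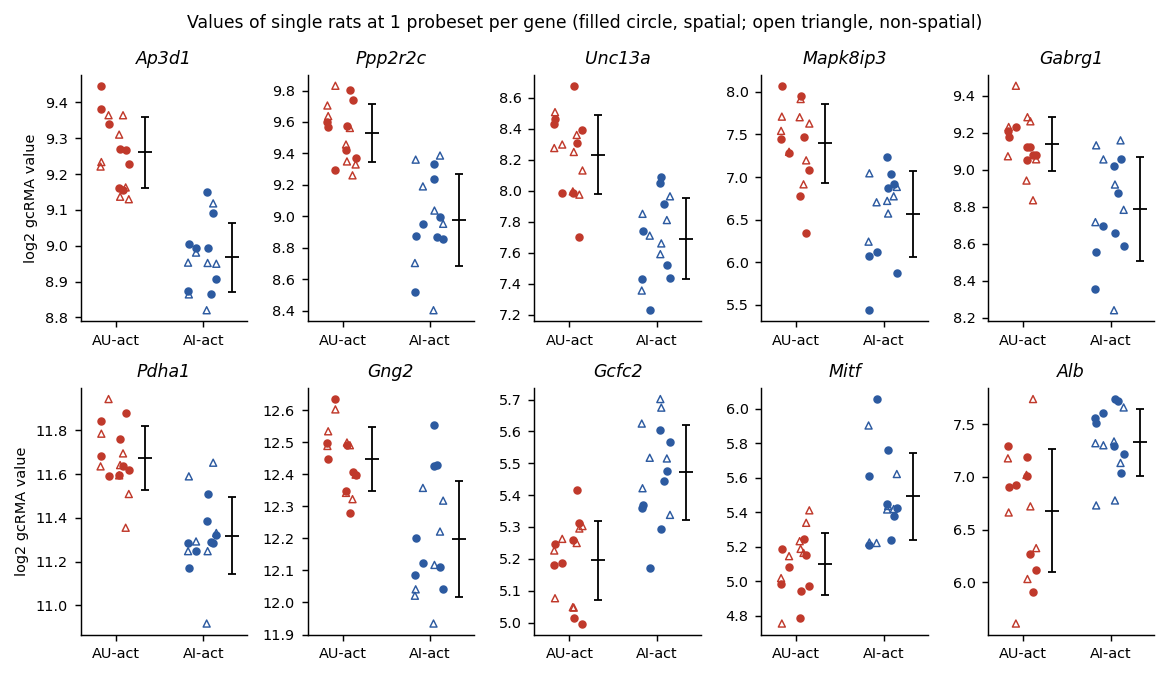
Log2 gcRMA values (vertical axes) of single rats at 1 probeset each of 10 genes in AU-act (red) and AI-act (blue) rats, with filled circles for S and open triangles for NS training and bars for the mean and SD. Ap3d1 shows the least overlap of the 10 (14 of 16 AU-act rats above every AI-act rat), and Gcfc2, Mitf and Alb lie lower in AU-act rats. Ap3d1, Pdha1 and Mitf are shown at dimmer probesets, and the brightest probeset of each did not pass.

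The stretches of 150 bases just before the annotated transcription start of these 4 genes are shown because they are the 3 genes called higher and the 1 called lower with the smallest p at their brightest probeset among those with a RefSeq promoter here (build GRCr8, each written 5′ to 3′ on the strand of the gene). They lie at chr14:78156213-78156362 on the minus strand, chr3:29605781-29605930 on the minus strand, chr16:18415787-18415936 on the minus strand and chr7:43029122-43029271 on the plus strand. Capitals mark matches on either strand, so that a GC box may read CCGCCC and neighbouring boxes may run together, to the GC box GGGCGG bound by Sp factors, to the cAMP response element TGACGTCA bound by CREB, or to the AP-1 site TGANTCA bound by Fos and Jun dimers.
Ppp2r2c: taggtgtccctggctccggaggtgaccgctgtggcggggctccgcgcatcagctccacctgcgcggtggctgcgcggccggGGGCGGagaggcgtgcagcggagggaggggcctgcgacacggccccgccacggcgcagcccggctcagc
Entr1: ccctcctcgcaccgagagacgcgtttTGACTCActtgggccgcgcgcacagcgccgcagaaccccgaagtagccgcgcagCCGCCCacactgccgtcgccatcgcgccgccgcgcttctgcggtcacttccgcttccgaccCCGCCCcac
Unc13a: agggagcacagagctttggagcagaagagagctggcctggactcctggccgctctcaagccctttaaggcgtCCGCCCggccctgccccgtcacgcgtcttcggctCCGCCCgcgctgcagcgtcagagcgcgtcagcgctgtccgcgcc
Ccdc59: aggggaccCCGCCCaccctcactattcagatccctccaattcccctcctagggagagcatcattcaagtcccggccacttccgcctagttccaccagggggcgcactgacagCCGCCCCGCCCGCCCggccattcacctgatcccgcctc
Each of the 4 holds at least 1 GC box, Entr1 alone also holds an AP-1 match, and no cAMP response element is found in these windows. Over the 250 bases before the start, GC boxes were found in 64.3% of the 168 promoters matched to the 196 genes called higher, against 61.6% of 7597 promoters of measured genes and 32.4% of all 27457 promoters. The cAMP response element was found in 4.17%, 3.09% and 1.70%, and the AP-1 site in 4.17%, 3.92% and 6.36%. Of the 30 genes called lower, 24 were matched, and 13 held a GC box, 0 the response element and 1 the AP-1 site.

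Genes of transmitter release and vesicle retrieval were among those most often higher in AU-act rats. Of 59 measured genes of vesicle priming, SNAREs and synaptic vesicle proteins, 7 were higher and 0 lower (11.9%, against 2.17% of all genes), with a median difference of 0.06 against 0.00 over all genes. Besides Unc13a they were Nsf, the ATPase that takes spent SNARE complexes apart, Pclo, an active zone scaffold, the calcium sensors and vesicle proteins Syt1, Syt11 and Syt13, and Unc13b. Nsf differed by 0.20 (SE 0.04) and Pclo by 0.41 (SE 0.08). Endocytosis and clathrin coats were read by 43 genes, of which 4 were higher (9.30%) and 0 lower, with 37 positive differences. These were Sh3gl2, an endophilin that shapes the necks of budding vesicles, by 0.28 (SE 0.06), the adaptor subunits Ap1g1 and Ap2m1, and Amph, amphiphysin. With the Gapdh and beta-actin covariate the medians of both lists were 0.04, and Sh3gl2 differed by 0.29 without passing.

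Genes of membrane traffic elsewhere in the cell were read in 3 lists. Of 48 Rab GTPases and effectors, 3 were higher (6.25%) and 0 lower, among them Rab6b, of the Golgi, by 0.16 (SE 0.03), and Rab13 by 0.44 (SE 0.14), whose call was lost in 23 of the 31 fits that each left out 1 array. Of 86 genes of ER and Golgi transport, 4 were higher (4.65%), namely the COPI coat subunits Copg1 by 0.16 (SE 0.04) and Copa by 0.12 (SE 0.03), Arfgef2, an exchange factor that loads ARF proteins, by 0.29 (SE 0.07), and Golph3, a Golgi phosphoinositide-binding protein. Of 74 genes of endosomes, the proton pump and lysosomes, 2 were higher (2.70%, near the 2.17% of all genes). One was Sort1, the sorting receptor sortilin, and the other Vps52, a subunit of the GARP complex that tethers endosome-derived vesicles at the Golgi, with values from 6.09 to 6.80 (median 6.33) in AU-act and from 5.26 to 6.28 (median 5.91) in AI-act rats. For Vps52, 9 of 16 AU-act rats lay above every AI-act rat, and the difference was 0.47 (SE 0.08, adjusted p = 0.00158).

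Among motors, 4 of 57 genes were higher (7.02%) and 1 lower. Mapk8ip3, a scaffold that ties JNK kinases to kinesin, had the largest difference of all genes at a brightest probeset, 0.82 (SE 0.16, adjusted p = 0.00330), or 1.77-fold, with values from 6.34 to 8.07 (median 7.46) in AU-act and from 5.44 to 7.23 (median 6.72) in AI-act rats. The ranges overlapped, since the lowest AU-act rat lay below the AI-act median, but 11 of 16 AU-act rats lay above every AI-act rat. Dync1h1, the heavy chain of cytoplasmic dynein, differed by 0.20 (SE 0.04), and the kinesin Kif3a by 0.22 (SE 0.05). Dynlt1, a dynein light chain, differed by -0.18 (SE 0.05), a call lost in 11 of the 31 leave-one-out fits. Of 46 microtubule and neurofilament genes only Crmp1, a collapsin response mediator, was higher (2.17%), by 0.13 (SE 0.04).

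On the postsynaptic side, 6 of 55 genes of scaffolds and adhesion were higher (10.9%) and 0 lower. They were Clstn2, a calsyntenin of the synaptic membrane, by 0.23 (SE 0.06), the neural adhesion molecules Ncam2 by 0.37 (SE 0.10) and Cntn1 by 0.39 (SE 0.10), Nlgn1, a neuroligin of excitatory synapses, and the scaffolds Lin7c and Dlg2. Of 20 genes of glutamate receptors and transporters 0 were higher and 1 lower, Grm8, a presynaptic receptor that restrains release. Its values ran from 8.32 to 9.09 (median 8.72) in AU-act and from 8.71 to 9.59 (median 9.07) in AI-act rats, and 7 of 16 AU-act rats lay below every AI-act rat. The difference was -0.34 (SE 0.08, adjusted p = 0.00568).

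Of 21 genes of GABA and glycine transmission 3 were higher (14.3%) and 0 lower. Gabrg1, a GABA-A receptor subunit, ranged from 8.83 to 9.45 (median 9.12) in AU-act and from 8.24 to 9.16 (median 8.78) in AI-act rats, a difference of 0.35 (SE 0.08, adjusted p = 0.00637). Glrb, the beta subunit of the glycine receptor, differed by 0.10 (SE 0.03), and Gad2, which makes GABA at nerve terminals, by 0.48 (SE 0.14, adjusted p = 0.0392). The call of Gad2 was lost in 11 of the 31 leave-one-out fits. With the Gapdh and beta-actin covariate these were 0.16, 0.06 and 0.23. The 6 interneuron markers (Gad1, Gad2, Sst, Npy, Vip and Pvalb) averaged 8.67 to 9.57 in AU-act and 8.78 to 9.52 in AI-act rats, and 0.04 separated the means (permutation test, p = 0.677). Of 15 interneuron peptides and buffers, Gad2 and Kit, a receptor tyrosine kinase of some interneurons, were higher (13.3%), Kit by 0.44 (SE 0.09).

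Of 24 ion pumps and exchangers 4 were higher (16.7%) and 1 lower, the highest share of the 50 lists. Clcn7, a chloride and proton exchanger of lysosomes, ranged from 6.25 to 7.07 (median 6.61) in AU-act and from 5.61 to 6.72 (median 6.25) in AI-act rats, a difference of 0.40 (SE 0.09, adjusted p = 0.00568). The related exchangers Clcn4 and Clcn6 differed by 0.21 (SE 0.05) and 0.17 (SE 0.05), and Atp2a2, the calcium pump of the endoplasmic reticulum, also passed. Clic2, a chloride intracellular channel protein, was the gene that was lower, by -0.42 (SE 0.10, adjusted p = 0.00884). Of 35 potassium channel genes 1 was higher (2.86%) and 1 lower. Kcnj10, an inward rectifier found mainly in glia, differed by 0.68 (SE 0.16, adjusted p = 0.00830), with values from 6.09 to 7.76 in AU-act and from 5.11 to 7.07 in AI-act rats, and Kcnip4, which binds Kv4 channels, differed by -0.20 (SE 0.06). Of 26 sodium, calcium and HCN channel genes 0 passed in limma, and 6 had an unadjusted p under 0.05, against 1321 of all 9037 genes.

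Among signalling genes, the share called higher ran from 3.92% of plasticity kinases to 12% of neurotrophins and growth factor receptors. Of 67 protein phosphatase subunits 3 were higher (4.48%), Ppp2r2c, Ppp1r7, a nuclear regulator of phosphatase PP1, by 0.23 (SE 0.04), and Ppp6c, a catalytic subunit, by 0.24 (SE 0.06). Of 45 genes of cyclic nucleotide signalling 3 were higher (6.67%). Akap6, an anchor of protein kinase A, differed by 0.31 (SE 0.06), Pde1a, a calmodulin-dependent phosphodiesterase, by 0.31 (SE 0.08), and the transcription factor Atf2 by 0.42 (SE 0.12). With the hexokinase covariate Atf2 changed sign to -0.024. Of 39 G protein and RGS genes Gng2 and Gnai1, a gamma and an inhibitory alpha subunit, were higher (5.13%), by 0.25 (SE 0.05) and 0.32 (SE 0.08). Of 51 plasticity kinases Mapk9, a JNK kinase, and Prkca, protein kinase C alpha, were higher (3.92%), by 0.30 (SE 0.06) and 0.37 (SE 0.09), and fell to 0.15 each with the Gapdh and beta-actin covariate. Of 25 genes of neurotrophins and growth factor receptors 3 were higher (12%), Kit, Gfra1, a GDNF co-receptor, by 0.28 (SE 0.07), and Fgfr1 by 0.17 (SE 0.05).

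Lists of energy genes had medians of different sign. Of 30 genes of glycolysis and the citrate cycle 3 were higher (10%) and 29 had a positive difference, with a median of 0.08, the highest of the lists. The 3 were Tpi1, triose phosphate isomerase, by 0.20 (SE 0.05), and the phosphofructokinase subunits Pfkm by 0.16 (SE 0.04) and Pfkp by 0.11 (SE 0.03). In the respiratory chain the medians were -0.05 for 34 genes of complex I, -0.02 for 22 of complexes II to IV and -0.04 for 14 of ATP synthase, with 8, 5 and 4 positive. Within S training they were -0.09, -0.06 and -0.08, and within NS training -0.01, 0.01 and 0.00. The members that passed there were higher in AU-act rats, Ndufv1 of complex I by 0.18 (SE 0.05) and Sdha, the flavoprotein of succinate dehydrogenase, by 0.15 (SE 0.04). Of 39 cytosolic ribosomal protein genes 0 passed in limma, 4 had an unadjusted p under 0.05, and 9 had a positive difference with a median of -0.06. With the Gapdh and beta-actin covariate these lists had medians of 0.05 for glycolysis and the citrate cycle, -0.06 for complex I and -0.08 for ribosomal proteins, while with the hexokinase covariate complex I and ATP synthase turned to 0.01 each and complexes II to IV to 0.02.

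In lists of protein turnover and RNA handling the share called higher ran from 0% to 5.56%. Of 63 genes of ubiquitin conjugation and removal the deubiquitinases Usp12, Usp24 and Usp47 were higher (4.76%), Usp12 by 0.34 (SE 0.08), and of 36 proteasome subunits Psmd2 and Psmd4 were higher (5.56%). The calls of Usp24, Usp47, Psmd2 and Psmd4 were each lost in 10 to 20 of the 31 leave-one-out fits. Of 85 splicing and RNA-binding genes 3 were higher (3.53%), among them Ddx17, an RNA helicase, by 0.24 (SE 0.06), and Hnrnpab by 0.22 (SE 0.06). Nup50, a nuclear pore protein, was the 1 of 52 genes of nuclear transport that was higher (1.92%), by 0.30 (SE 0.06). Eif4g1, the scaffold of the cap-binding complex, was the 1 of 41 translation factors (2.44%), by 0.20 (SE 0.05). For 59 chaperones and 89 chromatin modifiers the count was 0 in both directions, with 16 and 5 genes at an unadjusted p under 0.05 in limma. At any probeset, where 7.02% of all genes were higher, 8 chaperones and 7 chromatin modifiers were, and 1 chromatin modifier was lower. Of the other lists here, 8 ubiquitin, 3 proteasome, 11 splicing, 2 nuclear transport and 6 translation genes were higher at any probeset, and 1 splicing gene was lower.

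Calls that were lost in at least 8 leave-one-out fits also include Unc13b, Dlg2, Lin7c, Atp2a2, Atf2, Golph3, Crmp1, Pfkp and Ndufv1. Among members counted above but not named there, Rab1a of the Rab list lost its call in 17 fits. Dync1i1 of the motors lost it in 22, and Srsf1 of the splicing list in 10.

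Genes tied to neuronal activity, stress hormones and immunity gave 0 calls in limma at the brightest probeset. Of 33 immediate early and activity-regulated genes 11 had a positive difference and the median was -0.05, and Fosb, a subunit of AP-1, had the smallest p with -0.21 (SE 0.08, adjusted p = 0.122). Of 18 glucocorticoid-responsive genes 6 were positive, with a median of -0.04. Among 17 microglia genes 2 were positive, with a median of -0.15, and among 25 immune and interferon genes 4 were positive, with a median of -0.06. In the order given, 3, 1, 2 and 2 genes had an unadjusted p under 0.05 in limma, against 1321 of all 9037 genes. The microglia markers Aif1, Csf1r and C1qa averaged 9.29 ± 0.24 in AU-act and 9.41 ± 0.35 in AI-act rats (SD, n = 16 and 15, permutation test, p = 0.266). Oligodendrocyte and astrocyte genes also gave 0 calls, with medians of 0.06 over 24 genes and 0.01 over 25 and with 2 and 1 at an unadjusted p under 0.05.

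**Figure D2:**
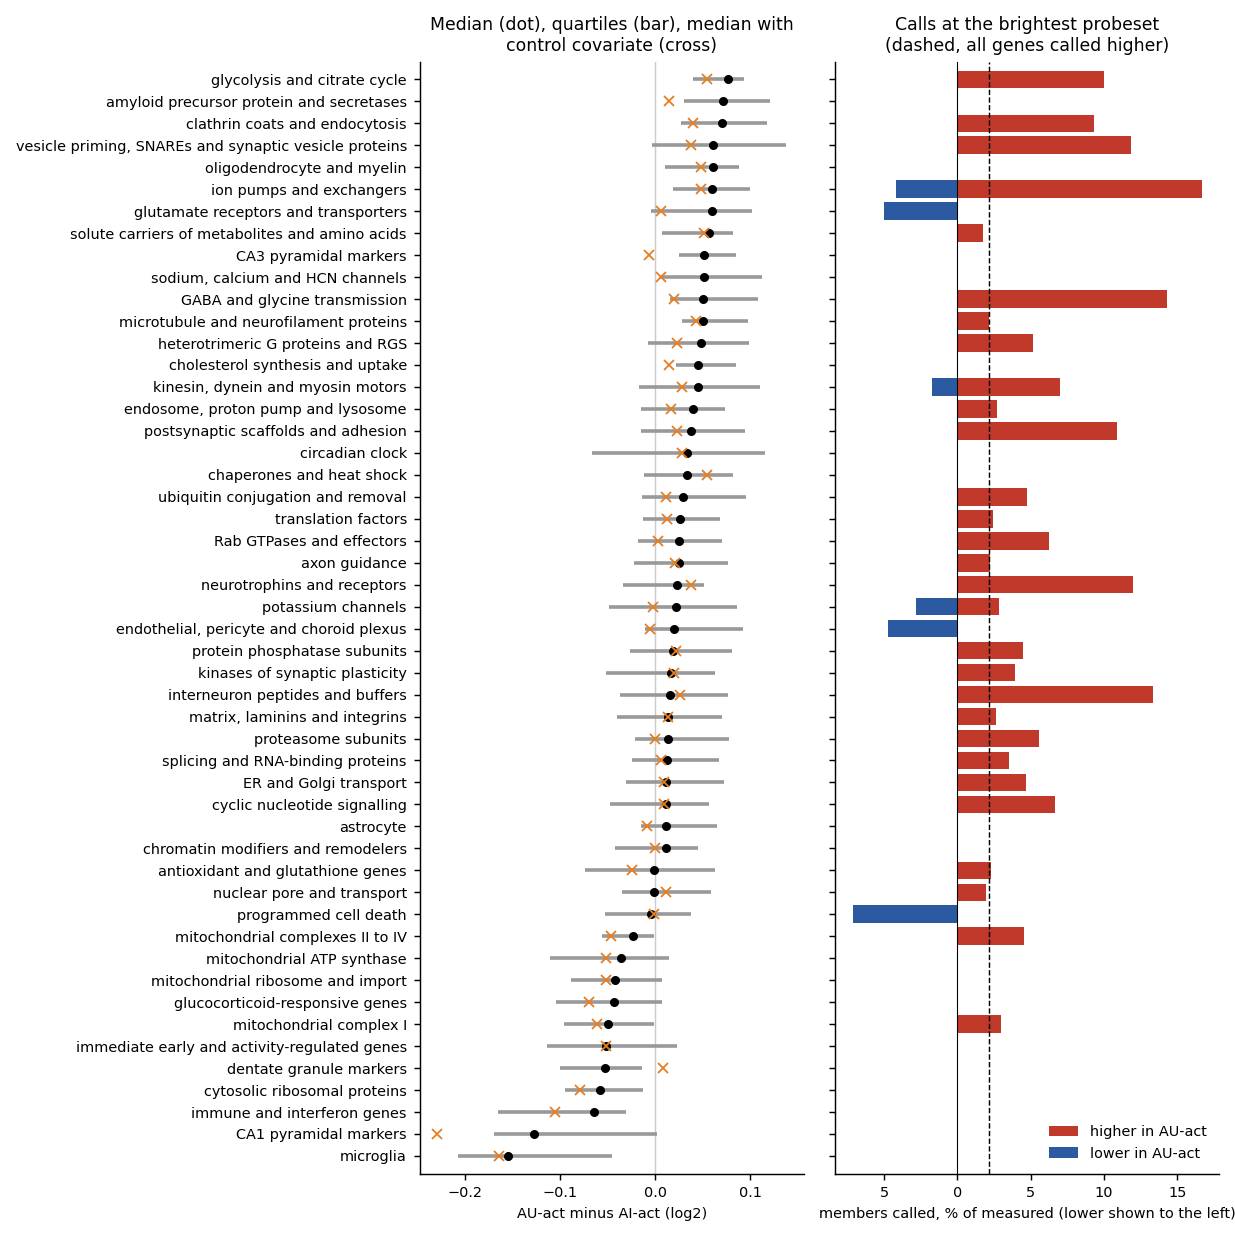
Left, difference of AU-act and AI-act rats on the log2 scale (horizontal axis, positive where AU-act is higher) at the brightest probeset of each gene in 50 gene lists (vertical axis), as median (dot), quartiles (bar) and median with the Gapdh and beta-actin covariate (cross). Right, the percentage of measured members called higher (red) or lower (blue, drawn to the left) by limma, with the 2.17% of all genes called higher dashed. Ion pumps and GABA genes have the highest shares, and microglia genes the lowest median.

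Of the 90 probesets called lower in AU-act rats, 48 had no gene name or several, so they could enter no list. The named genes that were lower formed no common list. Several had signals near the lower end of the table, whose smallest probeset mean is 5.00. Gcfc2, which takes part in splicing, ran from 5.00 to 5.42 (median 5.24) in AU-act and from 5.17 to 5.70 (median 5.48) in AI-act rats, a difference of -0.28 (SE 0.05, adjusted p = 0.00159). Mitf, a transcription factor of the basic helix-loop-helix family, ran from 4.76 to 5.41 (median 5.15) and from 5.21 to 6.06 (median 5.43) at a dimmer probeset, and 12 of 16 AU-act rats lay below every AI-act rat. Its difference was -0.39 (SE 0.08, adjusted p = 0.00330), against -0.23 (SE 0.13) at its brightest probeset, which did not pass. Crem, a modulator of cAMP-driven transcription, differed by -0.31 (SE 0.07) at a dimmer probeset and -0.08 (SE 0.06) at the brightest. Of 28 genes of programmed cell death 2 were lower (7.14%, against 0.332% of all genes) and 0 higher. These were Cflar, an inhibitor of caspase-8 activation, by -0.33 (SE 0.07), and the death receptor Tnfrsf1a by -0.21 (SE 0.06), a call lost in 5 of the leave-one-out fits. At any probeset 2 genes of this list were higher too, Casp2 by 0.24 (SE 0.07) and Bcl2l1 by 0.60 (SE 0.17), both at dimmer probesets. Uqcc6, an assembly factor of the respiratory chain, differed by -0.31 (SE 0.07) and Tifa, an adaptor of NF-kB signalling, by -0.26 (SE 0.06).

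Alb, the gene of serum albumin, was the 1 of 21 endothelial, pericyte and choroid plexus genes that was lower. It ran from 5.61 to 7.74 (median 6.81) in AU-act and from 6.73 to 7.74 (median 7.32) in AI-act rats. The highest AU-act and AI-act values were nearly equal, while 8 of 16 AU-act rats lay below every AI-act rat. The difference was -0.64 (SE 0.16, adjusted p = 0.0151) and -0.66 with the Gapdh and beta-actin covariate. It is the 1 marker of choroid plexus and blood measured out of 5, and the endothelial markers Cldn5 and Flt1 averaged 8.82 and 8.78 in the phenotypes (permutation test, p = 0.475).

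Which probeset of a gene was read made a large difference to the calls. Among genes with 2 or more probesets, 3.26% of the 2394 brightest probesets were higher in AU-act rats, against 16.8% of the 3205 dimmer ones, and 1.78% of the 6643 probesets that were the only one of their gene. The share was 13.8% for probesets dimmer than the brightest by under 2 on the log2 scale, 21.7% for those dimmer by 2 to 4 and 17.8% for those dimmer by 4 or more. Medians of the difference were 0.01 at the brightest and 0.07 at the dimmer probesets, and 0.01 and 0.04 with the Gapdh and beta-actin covariate. The share called lower was at most 0.480% in each of these classes. Counted at any probeset, 634 of 9037 genes were higher (7.02%) and 42 lower (0.465%). Of the 516 genes with several probesets and at least 1 called higher, the brightest was called in 78 and not in 438.

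**Figure D3:**
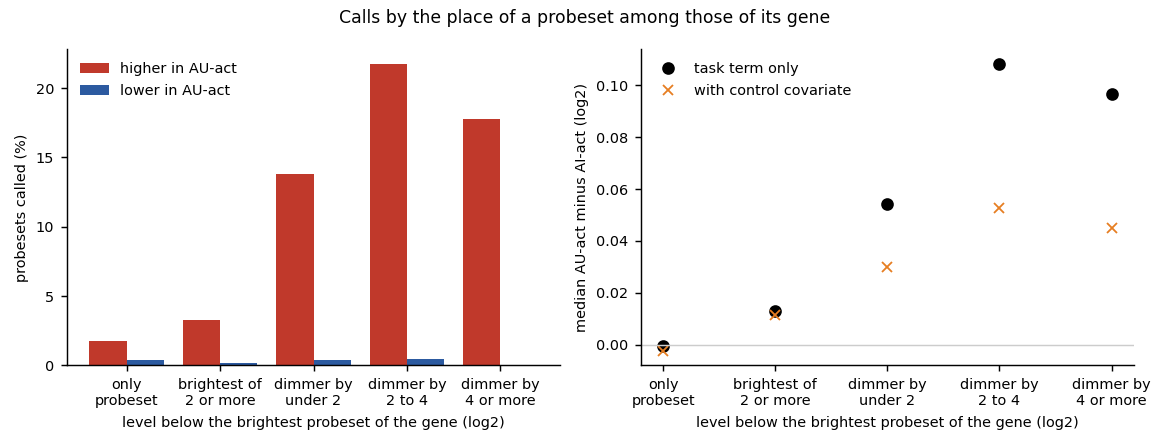
Left, percentage of probesets (vertical axis) called higher (red) or lower (blue) in AU-act rats by the place of a probeset among those of its gene (horizontal axis). Right, median AU-act minus AI-act log2 difference of the same classes without (dots) and with (crosses) the Gapdh and beta-actin covariate. Dimmer probesets were called higher in 13.8% to 21.7% of cases, against 3.26% for the brightest.

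For the lists, this choice moved the counts by more than 1.5 times. At any probeset 17 of 59 vesicle release genes, 15 of 55 postsynaptic genes, 14 of 86 ER and Golgi genes, 13 of 48 Rab genes and 10 of 43 endocytosis genes were higher, against 634 of 9037 genes overall. Several genes passed at 3 probesets. For Nsf all 3 passed, with differences of 0.29, 0.20 and 0.11, and for Smap2, a regulator of ARF proteins and clathrin traffic, all 3 passed with 0.38, 0.34 and 0.15, the smallest at the brightest. Lrp11, a receptor-related membrane protein, passed at 3 of 4 with 0.40, 0.44 and 0.19 and differed by 0.04 (SE 0.03) at the brightest. Dlg3, a postsynaptic scaffold of the PSD-95 family, passed at 3 with 0.36, 0.28 and 0.36 and differed by 0.09 (SE 0.04) at the brightest. In the hexokinase controls, which read Hk1, the first enzyme of glycolysis, the difference was 0.68 (SE 0.12) at the 5′ end, 0.37 (SE 0.06) in the middle and 0.30 (SE 0.07) at the 3′ end, and 0.12 (SE 0.06) at the ordinary probeset of that gene, which did not pass. The beta-actin controls had 0.37 (SE 0.11), 0.24 (SE 0.08) and 0.15 (SE 0.06), of which the 5′ end passed, and the Gapdh controls 0.14 (SE 0.05), 0.11 (SE 0.06) and 0.07 (SE 0.04), none of which passed.

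More probesets had the larger spread between rats in AI-act than in AU-act rats, though no single probeset passed a test of it. Probesets of the same arrays are not independent, so these shares do not test whether the rats differ in spread. With the rat as the unit, the distance given below had p = 0.139 (permutation test). The 3′ minus 5′ difference of hexokinase also had the larger SD in AI-act rats (0.27 against 0.15), and its part in the spread was not tested. The median SD of a probeset within task was 0.16 in AU-act and 0.18 in AI-act rats, and 60.9% of probesets had the larger SD in AI-act rats. Among the 818 probesets called higher in AU-act rats, which were picked by the phenotype difference in these same arrays, the share was 84.5%. Their median SDs were 0.16 and 0.21, and among the 90 called lower the share was 45.6%. The share over all probesets stayed between 57.6% and 64.2% when each array was left out in turn. Tested per probeset with limma on absolute residuals, 0 of 16204 passed (0%), the smallest adjusted p was 0.129, and of 1311 with an unadjusted p under 0.05, 989 had the larger spread in AI-act and 322 in AU-act rats.

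Single genes with the smallest p for spread are given as values, since none passed. Shisa7, an auxiliary protein of synaptic receptors, had nearly equal medians of 9.63 in both phenotypes but ran from 9.53 to 9.74 in AU-act and from 9.30 to 10.05 in AI-act rats (adjusted p for spread 0.291). Jam2, a junctional adhesion molecule, had SDs of 0.14 and 0.32, and Elovl5, an elongase of polyunsaturated fatty acids, of 0.26 and 0.64, both at dimmer probesets that were also called higher in AU-act rats. Opcml, a GPI-linked neuronal adhesion molecule, appeared with 2 probesets, with SDs of 0.17 and 0.38 at one and 0.10 and 0.23 at the other. The other way round, Rnf215, a RING finger protein, had SDs of 0.20 in AU-act and 0.06 in AI-act rats, Plekhf1 0.24 and 0.10, Asb1 0.14 and 0.05, Dnajc11, a mitochondrial chaperone, 0.32 and 0.10, and Dennd2a 0.24 and 0.06. By list, the larger SD lay with AI-act rats in 15 of 17 microglia genes, 37 of 43 endocytosis genes, 18 of 21 GABA and glycine genes and 24 of 30 genes of glycolysis and the citrate cycle, against 59.9% of all genes. It did so in 5 of 15 interneuron and 3 of 10 CA1 genes.

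Whole profiles were compared next. The distance of a rat from the mean profile of the other rats of its own group (1 minus Pearson's r over all probesets) was 0.00722 ± 0.00192 (SD, n = 16) in AU-act and 0.00836 ± 0.00223 (SD, n = 15) in AI-act rats (two-sided permutation test within tasks, p = 0.139). Rats of both phenotypes covered nearly the same range, from 0.00505 to 0.0116 and from 0.00469 to 0.0112. The first principal component, which held 15.8% of the variance, whose sign was set so that AU-act rats were higher, averaged 5.33 ± 8.69 in AU-act and -5.69 ± 14.1 in AI-act rats (SD, n = 16 and 15, permutation test, p = 0.0116), and the second, with 13.5%, 5.15 ± 9.81 and -5.50 ± 11.4 (p = 0.00992). Without the AI-NS rat with the largest Gapdh and beta-actin 3′ minus 5′ difference (replicate 8) the first component differed by 1.95 (permutation test, p = 0.669), and without AU-NS replicate 2 by 8.18 (p = 0.0683).

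**Figure D4:**
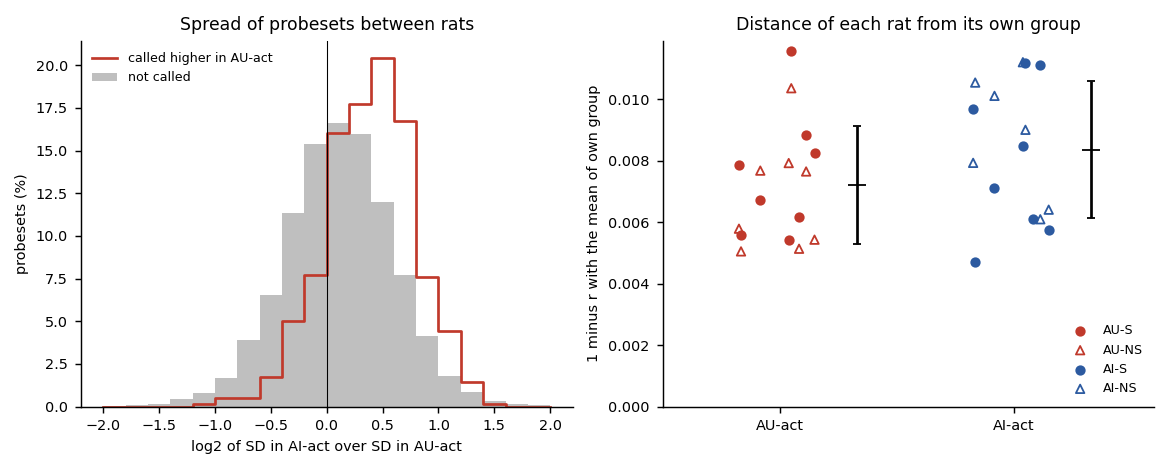
Left, distribution over probesets (vertical axis, percent) of the log2 ratio of the SD in AI-act to that in AU-act rats (horizontal axis), for probesets not called (grey) and called higher in AU-act rats (red line), whose share above 0 is 84.5%. Right, distance of each rat from the mean profile of the other rats of its group, with bars for the mean and SD.

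How each rat sat on the pooled difference was measured with a score that did not use that rat. The model was fitted to the other 30 arrays, and the probesets called there were averaged in the rat left out, higher minus lower, relative to the midpoint between the means of the other AU and AI rats of its task. The score averaged 0.19 ± 0.21 (SD, n = 16) in AU-act and -0.18 ± 0.26 (SD, n = 15) in AI-act rats on the log2 scale. It was above 0 in 12 of 16 AU-act rats, from -0.17 to 0.67, and in 5 of 15 AI-act rats, from -0.61 to 0.19. The AU-act rats at or below 0 were AU-NS replicates 5 and 7 and AU-S replicates 2 and 7, and the AI-act rats above 0 were AI-NS replicates 3, 4 and 6 and AI-S replicates 1 and 7. The difference of the means was 0.38 within S and 0.37 within NS training.

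Among AI-act rats the score fell with the 3′ minus 5′ difference of Gapdh and beta-actin (Pearson's r = -0.844, permutation p = 1e-05, the smallest the permutations can give, adjusted p = 0.00012, and Spearman's rho = -0.907, permutation p = 3e-05, adjusted p = 0.00036, n = 15, 12 relations computed). Without the 2 rats farthest from the median of that difference r was -0.833. Among AU-act rats r was -0.249 (permutation p = 0.350, adjusted p = 0.568) and rho -0.250 (permutation p = 0.350, adjusted p = 0.630). With the hexokinase difference r was -0.774 (permutation p = 0.00051, adjusted p = 0.00306) and rho -0.743 (permutation p = 0.00227, adjusted p = 0.0136) in AI-act rats, with r = -0.646 without the 2 farthest rats. In AU-act rats it was -0.417 (permutation p = 0.109, adjusted p = 0.328) and rho -0.365 (permutation p = 0.165, adjusted p = 0.495), with r = -0.717 without the 2 farthest rats. No relation of the first component to either control difference had an adjusted p under 0.05 in either phenotype, with adjusted p of Pearson's r from 0.269 to 0.862 by permutation. With the Gapdh and beta-actin difference r was -0.491 in AI-act (permutation p = 0.0673) and -0.044 in AU-act rats (permutation p = 0.862). Without the 2 farthest rats these were -0.364 and -0.399. With the hexokinase difference r was -0.245 in AI-act and 0.111 in AU-act rats.

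**Figure D5:**
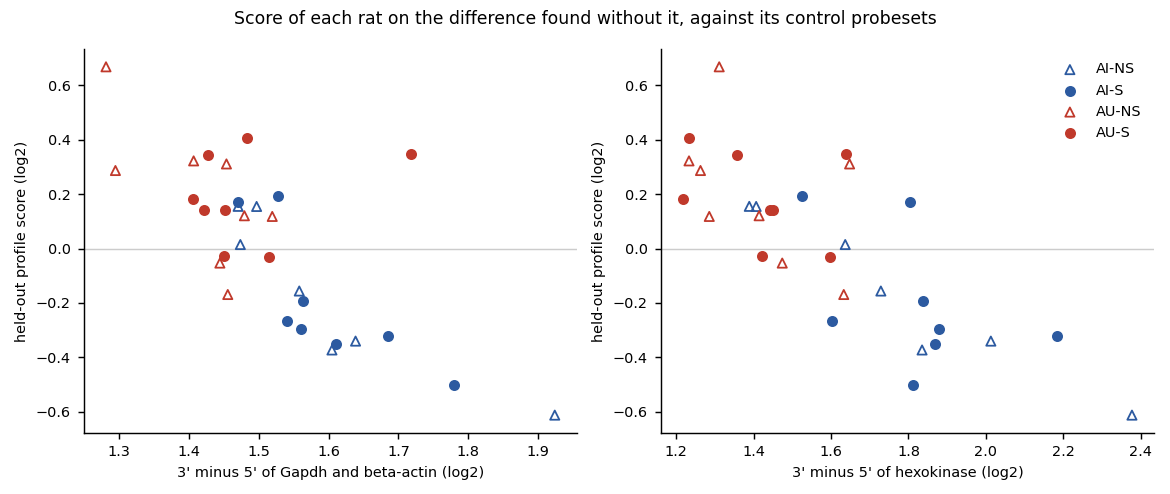
Score of each rat on the difference found without it (vertical axes, log2) against the 3′ minus 5′ log2 difference of its Gapdh and beta-actin controls (left) and hexokinase controls (right), for the 4 groups of phenotype and task. Blue AI rats fall from upper left to lower right in the left panel (r = -0.844), and 12 of 16 red AU rats lie above 0.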

How the data were processed

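Expression was measured with Affymetrix rat genome expression arrays, 1 array for each of 31 rats, and the labels name no other replicate. The authors normalized the scans with GCRMA in R (version not given in the sources used here) and deposited log2 values. They left out 1 array, and the 16204 probesets deposited all average at least 5 over the arrays. One gene name was taken for 12242 probesets from the platform annotation, 293 had several names and 3669 none, and 12207 matched the current RefSeq table. Phenotype and task came from the labels.

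Differences were fitted with limma 3.58.1 in R 4.3.3 with task as a term, adjusted over all probesets (Benjamini-Hochberg), and called at an adjusted p under 0.05. The spread was tested with limma on absolute deviations from the group mean. Single values were compared by permuting phenotype within task (100000 draws) in Python 3.11. Both limma steps were tested on simulated data, where the spread step missed most of the smaller simulated differences in SD. The absence of calls for spread therefore does not show equal spread.

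A gene in a list was read at its brightest probeset, and 1897 of 2477 listed genes were measured. The text names the probesets with the smallest p, up to 3 called members of a list in each direction, the genes with the smallest p for spread, and genes with several called probesets. Amph, Atp2a2, Bcl2l1, Casp2, Dlg2, Dync1i1, Golph3, Lin7c, Nlgn1, Syt1, Syt11, Syt13 and Unc13b, which complete small counts, and the comparison by place of a probeset were chosen after their values were seen. The gene lists were chosen with earlier results of these data known. Alternatives covered the model, scaling, covariates for control probesets and cell type markers, and each array left out. The rats came from 6 behavioural runs. The learning index, the run and the hybridization batch of each rat are not in the labels and could not be used here. Whether run or batch went with the phenotype or with the 3′ minus 5′ difference could not be examined.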

Additional observations from a re-analysis of the deposited data

Results flagged for a closer look

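In groups of 7 or 8 rats, 5 of 108 groups tested over 27 values had 1 rat far from the others, and chance alone gives about 1 in 20. For the 3′ minus 5′ difference of Gapdh and beta-actin, AU-S replicate 5 had 1.718 against 1.515 in the next rat, and AI-NS replicate 8 had 1.924 against 1.638. The cytoskeletal gene Cttn (cortactin) was lowest in that same AI-NS rat, at 8.258 against 8.781 in the nearest. Ncald, a neuronal calcium sensor, was lowest in AU-S replicate 7, at 11.07 against 11.23, and Clic2 in AU-NS replicate 4, at 6.088 against 6.759.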

How the results depend on the processing

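Without the task term limma called 810 probesets higher and 83 lower. The count lower moved to 142 with median centring, 138 with quantile normalization and 166 with array weights, where the counts higher were 695, 669 and 1132. With median centring and quantile normalization the higher share of calls fell from 90.1% to 83.0% and 82.9%. With the Gapdh and beta-actin covariate 1 was higher and 0 lower, and with the hexokinase covariate 0 and 0. SAM called 1876 higher and 20 lower. Leaving out each array in turn gave 597 to 1071 higher (without AI-NS replicates 8 and 4) and 50 to 162 lower (without AU-NS replicates 2 and 5), and the count lower also moved past 1.5 times without AI-NS replicate 4 (140), AI-S replicate 1 (143), AI-S replicate 3 (57) and AI-S replicate 7 (148). Over the lists, 71 genes higher became 231 at any probeset and 160 with the mean of the probesets. Probesets with a different spread numbered 0 to 1 with an array left out (1 without AI-NS replicate 4, AU-NS replicate 3 or AU-S replicate 2).

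The first component differed by 15.3 (permutation p = 0.435) with probesets scaled to unit variance, and by 1.95 to 16.3 with an array left out. The Gapdh and beta-actin 3′ minus 5′ difference ranged from -0.161 to -0.120, that of hexokinase from -0.409 to -0.338 and the distance from -0.00154 to -0.00091. The transcription factor gene Atf2 turned to -0.024 with the hexokinase covariate.

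Replicate numbers are shared by the groups but did not pair the rats: deviations of same-numbered rats correlated at -0.083 on average (45 pairs, 7 above 0.1), and 1 of 31 arrays correlated best with its own number. With the replicate block 572 probesets were higher and 44 lower, and 1 differed in spread.

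Over 137 named probesets and all arrays left out in turn, 3967 of 4247 values stayed on the same side of the threshold and 0 changed sign. Under the Gapdh and beta-actin covariate 109 lost their call, and that of Ap3d1 kept it. Under the hexokinase covariate 109 lost it with their sign kept, Atf2 lost it with its sign changed, and 0 stayed called. The remaining named probesets were not called in the main fit either. The cause was not tested. A probeset is called dimmer only relative to the brightest of its gene: 1 dimmer probeset of Nsf averaged 13.69 and 1 of Mitf 5.10 in AU-act rats. No depth is defined for arrays.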

Other observations

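In 4 further lists 1 member was called higher, and the shares of 1.75% to 2.63% lie near the 2.17% of all genes. Slc30a1, a zinc exporter of the plasma membrane, was the 1 of 57 solute carriers of metabolites and amino acids that was higher in AU-act rats, by 0.68 (SE 0.15) on the log2 scale. Sod2, the manganese superoxide dismutase of mitochondria, was the 1 of 44 antioxidant and glutathione genes, by 0.22, Spock1, a matrix proteoglycan, the 1 of 38 matrix, laminin and integrin genes, by 0.26, and Slit1, an axon repellent, the 1 of 45 axon guidance genes, by 0.29, a call lost in 17 of the 31 leave-one-out fits. In limma 0 of 22 genes of the amyloid precursor protein and its secretases passed at the brightest probeset (9 at an unadjusted p under 0.05, 19 positive), and 0 of 19 clock genes (3 at an unadjusted p under 0.05), although 4 and 5 genes of these lists were higher at another probeset.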
